A study of Mus musculus with 24 samples.

Results

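The genes described here are Tardbp, which encodes TDP-43, and 8 other genes tied to amyotrophic lateral sclerosis (ALS), the disease in which motor neurons degenerate: Matr3, Tbk1, Optn, Ubqln2, Vcp, C9orf72, Sod1 and Stmn2. They were chosen by symbol from the 39253 genes of the deposited count table, and all 9 were found and passed the filter on low values that left 13901 genes for testing. Their levels were compared because ataxin-2, the protein lowered in this study, is a modifier of TDP-43 toxicity.

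TDP-43 is a nuclear RNA-binding protein that prefers UG-rich RNA, keeps cryptic exons out of mature transcripts and limits its own mRNA through its 3′ UTR. In most people with ALS it leaves the nucleus and collects in cytoplasmic inclusions, and the Stmn2 transcript is a well-known human target that is lost when it does. Ataxin-2 binds RNA in the cytoplasm and takes part in stress granules. Of the other genes, Matr3 encodes the nuclear matrix RNA-binding protein matrin 3. Tbk1, Optn, Ubqln2, Vcp and C9orf72 encode proteins that clear damaged cargo by autophagy or the proteasome, and Sod1 encodes the cytosolic superoxide dismutase.

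RNA-seq covered 24 libraries of wild-type Neuro2A cells (a line from a mouse neuroblastoma), which fall into 8 groups of 3 independent biological replicates. Each of 3 effectors, RfxCas13d, its high-fidelity form HiFi-RfxCas13d, and DiCas7-11, all of them RNA-guided proteins that cut RNA, was delivered by transient plasmid transfection with an mATXN2-targeting crRNA or a non-targeted (NTG) crRNA, and cells were harvested 48 hr later. The other groups were untransfected cells and cells that received an ataxin-2-targeting antisense oligonucleotide (ASO), a short synthetic strand that pairs with its mRNA, with no control oligonucleotide among the groups. Transfection was transient, so a library can mix cells with and without the plasmid. The deposited column names write EV and G12 for the arms that the sample labels call NTG and G10, a difference in naming whose reason is not given in the sources used here. The labels and the study describe the control arm as NTG, and that name is used.

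Library totals lay between 12665725 and 22504999 expected counts (median 16478419), and the 3 ASO libraries were the deepest, at 21874644 to 22504999. Between replicates, genes differed by 1.68 to 2.57 times counting noise (chi-square per gene) in 7 groups and by 3.34 to 5.59 times among the DiCas7-11 NTG libraries. In untransfected cells 4 of 6 neuronal and 4 of 8 sympathoadrenal neuroblast markers exceeded 10 CPM (library-size-scaled counts, corrected by TMM factors), Tubb3 at 412.5 and Hand2 at 365.8. Rbfox3, the marker of mature neurons, was at 0.152 CPM, and no astrocyte or microglia marker exceeded 1 CPM, while 2 of 4 oligodendrocyte and 2 of 4 fibroblast markers did, Mbp highest at 12.8. Summed over its list, the neuronal level (Stmn2 included) ranged between groups from 659.3 CPM with DiCas7-11 mATXN2 to 789.1 in untransfected cells, the neuroblast level from 623.6 to 669.1, the oligodendrocyte level from 14.9 to 16.8 and the fibroblast level from 5.57 to 8.32, and their part in the results was not tested.

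Atxn2, the target, was measured first. Its mean fell by 1.25 on the log2 scale in ASO-treated cells, from 123.2 ± 1.78 to 52.0 ± 2.77 CPM (SD, n = 3). With the mATXN2 crRNA it fell by 0.23 with HiFi-RfxCas13d (edgeR quasi-likelihood test, Benjamini-Hochberg adjusted p = 0.00157) and by 0.20 with DiCas7-11 (adjusted p = 0.00557). With RfxCas13d it was 113.9 ± 2.08 CPM against 122.1 ± 2.64, a log2 fold change of -0.10 that did not pass the threshold of 0.05 (adjusted p = 0.178), although those libraries did not overlap. The ASO libraries held 48.9 to 54.1 CPM of Atxn2 and the lowest mATXN2 library 98.8 CPM. In bulk RNA, here and below, fewer cells with a transcript and less of it per cell cannot be told apart.

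Baseline levels differed widely among the 9 genes. Compared per length, as the median CPM over all 24 libraries divided by the transcript length in kb, Sod1 stood highest at 438.9, above 99% of the 12128 tested genes with a known length. Vcp followed at 194.9, Matr3 at 133.1, Ubqln2 at 100.8, Tardbp at 68.8, Tbk1 at 33.9 and Optn at 24, all above the median gene at 10.9. C9orf72, at 10.4, lay near that median, and Stmn2 was lowest at 3.0, above 23.4% of genes. Stmn2 encodes the microtubule-binding protein stathmin-2 of growing axons. It had 75.9 to 161.1 expected counts per library, a replicate CV of up to 26.4% and the widest intervals of the group. The other 8 genes had replicate CVs of at most 9.49%.

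The groups as a whole differed for 5 of the 9 genes in an F-test over all 8 groups, where 50.3% of all tested genes passed. Those were Ubqln2 (adjusted p = 3.01e-06), Tbk1 (5.09e-06), Tardbp (0.000282), Matr3 (0.000437) and Vcp (0.00666). Sod1 (0.161), Optn (0.167), C9orf72 (0.180) and Stmn2 (0.493) did not pass. The differences were small for every gene: the highest group mean was 1.06 times the lowest for Sod1, 1.09 times for Tardbp, 1.23 times for Tbk1 and 1.28 times for Stmn2, the widest span.

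**Figure D1:**
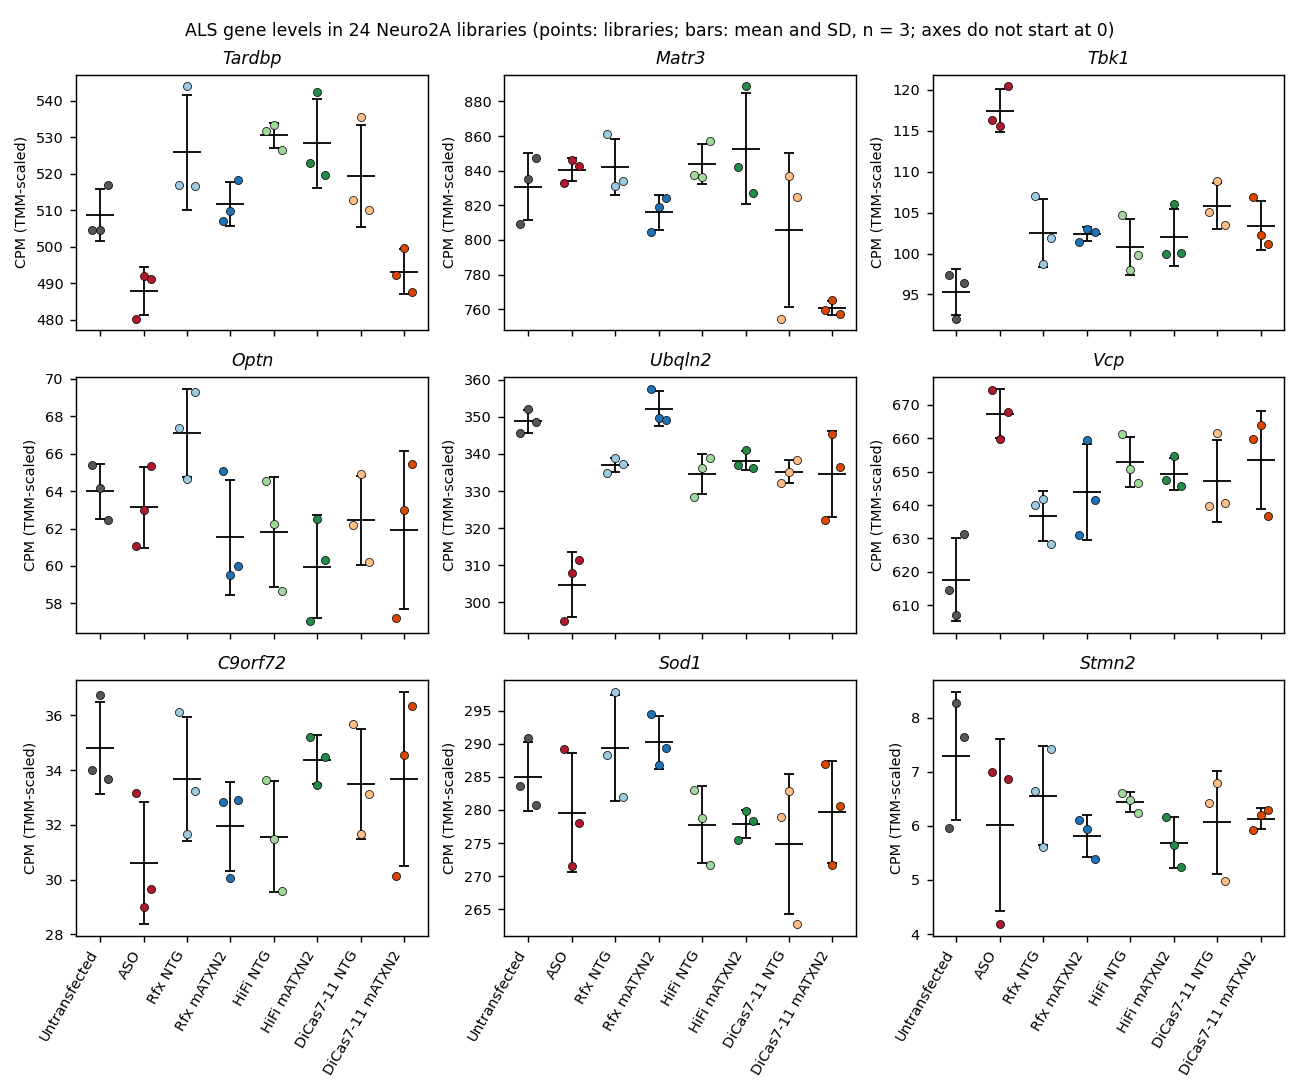
Level of each of the 9 genes (CPM with TMM scaling, vertical axis, not starting at 0) in the 24 libraries, by group (horizontal axis). Points are libraries and bars are the mean and SD of 3. Tbk1 is highest and Ubqln2 lowest in the ASO libraries, without overlap with any other group, and Matr3 is low in 1 DiCas7-11 NTG library and in all DiCas7-11 mATXN2 libraries.

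Tardbp was lowest in ASO-treated cells and in the DiCas7-11 mATXN2 arm. ASO libraries held 480.4, 492.1 and 491.2 CPM and untransfected libraries 504.7, 504.6 and 517.0, so the groups did not overlap. In the DiCas7-11 mATXN2 arm the libraries held 492.4, 499.7 and 487.6 CPM, all below the NTG libraries at 512.7, 535.4 and 510.0. The order of the group means was ASO, DiCas7-11 mATXN2, untransfected, RfxCas13d mATXN2, DiCas7-11 NTG, RfxCas13d NTG, HiFi-RfxCas13d mATXN2 and HiFi-RfxCas13d NTG, and of the 7 pairs of neighbours only DiCas7-11 mATXN2 and untransfected cells did not overlap. The whole span ran from 487.9 ± 6.51 CPM to 530.5 ± 3.54.

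Since TDP-43 prefers UG repeats, the letters TGTGTG were counted on the sense strand of 1 GENCODE M21 transcript per gene, overlapping matches included. The Tardbp transcript (7477 bases) held 6 copies, all in its 3′ UTR, or 0.802 per kb. The median over the 12128 transcripts searched was 0.505 per kb, 67.7% of them lay below Tardbp, and 72.5% held at least 1 copy. Sod1 (1.56 per kb) and C9orf72 (0.94 per kb) were denser than Tardbp, in shorter transcripts. The Optn and Matr3 transcripts held 2 copies each, both in the 3′ UTR, the C9orf72 transcript 3, of which 2 were coding, the Sod1, Tbk1, Vcp and Stmn2 transcripts 1 each, and the Ubqln2 transcript 0. The Tardbp and Optn transcripts each hold a run of 2 overlapping copies, and these runs are printed to show the kind of site meant, 5′ to 3′ on the minus strand of GRCm38, from the 3′ UTR, with the repeat in capitals. The Tardbp stretch is chr4:148613760-148613789 and the Optn stretch chr2:5021040-5021069. They start 4475 and 285 bases past the end of the coding sequence. Both were picked for their copies of the motif, and any part in the control of Tardbp mRNA was not tested.
Tardbp: tcctcctatagTGTGTGTGgacagcccaca
Optn: gggcatcttgtTGTGTGTGtaattctgtgg
A match is a description of the letters and not a measured binding site.

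The first question was whether the crRNA that lowers Atxn2 moved the ALS genes. None of the 9 passed edgeR's test with RfxCas13d, where 1.39% of all genes did, with HiFi-RfxCas13d (0.295% of all genes), with DiCas7-11 (0.942%) or for the average of the 3 effectors (5.19%). At an unadjusted p under 0.05 there were 2, 0, 2 and 3 of the 9, where 13.8%, 7.45%, 14.0% and 18.2% of all genes lay. DESeq2's test called 0, 0, 1 and 1, the call being Tardbp in both cases, beside 1.97%, 0.475%, 2.06% and 5.37% of all genes. With limma-trend it was 0 in each, beside 1.58%, 0.288%, 0.928% and 5.24%. In absolute terms the 9 genes had a median log2 fold change of 0.05, 0.02, 0.02 and 0.03, against 0.07, 0.06, 0.07 and 0.05 over all tested genes. The all-gene shares depend on a spread estimated over all 8 groups. When edgeR was fitted to only the samples compared, it called 1 of 13901 genes with DiCas7-11 in place of 131. With RfxCas13d that fit called 355 in place of 193, and with HiFi-RfxCas13d 91 in place of 41.

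With DiCas7-11, Tardbp had a log2 fold change of -0.07 ± 0.02 (SE; 95% confidence interval -0.12 to -0.03; adjusted p = 0.131). It was the member whose groups did not overlap, which 14.5% of all genes also showed. The same gene gave -0.04 with RfxCas13d (interval -0.09 to 0.01) and -0.01 with HiFi-RfxCas13d (interval -0.05 to 0.04), and the average over effectors was -0.04 ± 0.01 (adjusted p = 0.0952). The DiCas7-11 difference passed with DESeq2's test (adjusted p = 0.0395) and with limma-trend adjusted over the 7 pairwise comparisons together (0.0346), and its adjusted p ranged from 0.0346 to 0.556 over the 16 alternatives. The average passed in 4 of 27, among them DESeq2's test (0.0480) and the fits without the second HiFi-RfxCas13d mATXN2 library (0.0415) or the first DiCas7-11 NTG library (0.0461).

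Matr3 had the other low value in the DiCas7-11 mATXN2 arm, where libraries held 759.6, 765.2 and 757.4 CPM. The NTG libraries held 754.6, 837.2 and 824.7 CPM. The first NTG library thus lay below all 3 mATXN2 libraries and the other NTG libraries lay above them. The log2 fold change was -0.08 ± 0.03 (adjusted p = 0.166) and became -0.13 (adjusted p = 0.00407) without that first NTG library. The average over effectors was -0.04 (adjusted p = 0.212), and without the same library -0.05 (adjusted p = 0.0109). With RfxCas13d the mATXN2 libraries (804.8 to 824.4 CPM) lay below the NTG libraries (831.2 to 860.9), for a log2 fold change of -0.05 (adjusted p = 0.524).

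Among the clearance genes, Optn, an autophagy receptor that binds ubiquitin, was lower on average with the mATXN2 crRNA of RfxCas13d, at 65.1, 59.5 and 59.97 CPM against 67.4, 64.6 and 69.3. These libraries overlapped, and the log2 fold change of -0.13 ± 0.05 did not pass (adjusted p = 0.239). Ubqln2, which encodes a shuttle that carries ubiquitinated proteins to the proteasome, held 357.6, 349.8 and 349.2 CPM there against 334.9, 338.8 and 337.2. Those libraries did not overlap, but the log2 fold change of 0.06 ± 0.03 did not pass either (adjusted p = 0.223). Ubqln2 and Matr3 were the 2 members without overlap in this comparison, where 20.2% of all genes had none.

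For the remaining members the crRNA comparisons bounded the change. The intervals for Vcp, the segregase that pulls ubiquitinated proteins apart, lay within -0.05 and 0.06 on the log2 scale with all 3 effectors, those for Sod1 within -0.06 and 0.09, and those for Tbk1, the kinase that activates autophagy receptors, within -0.11 and 0.09. C9orf72, whose product works in a complex that regulates autophagy and lysosomes, gave -0.08, 0.12 and 0.01 with RfxCas13d, HiFi-RfxCas13d and DiCas7-11, with intervals of -0.22 to 0.07, -0.02 to 0.27 and -0.14 to 0.15. Stmn2 gave -0.18, -0.19 and 0.02, with intervals of -0.51 to 0.16, -0.51 to 0.14 and -0.32 to 0.35, each spanning both signs. The smallest change that could have been detected was not computed. Its HiFi-RfxCas13d mATXN2 libraries (5.23 to 6.17 CPM) lay below the NTG libraries (6.23 to 6.60), the only member without overlap there, against 13.2% of all genes.

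Whether effectors differed in these responses was tested directly as the difference between their log2 fold changes. No gene of 13901 was called for HiFi-RfxCas13d minus RfxCas13d (0.0%), DiCas7-11 minus RfxCas13d (0.0%) or DiCas7-11 minus HiFi-RfxCas13d (0.0%) by edgeR. At an unadjusted p under 0.05 there were 855, 1084 and 1028 genes, DESeq2 called 0, 3 and 3, and limma-trend called 0 in each. Among the 9 members the lowest unadjusted p was that of Matr3 for DiCas7-11 minus HiFi-RfxCas13d, a difference of -0.10 (interval -0.18 to -0.01, adjusted p = 0.635). The differences for Tardbp were 0.03, -0.04 and -0.07, with intervals between -0.14 and 0.10.

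**Figure D2:**
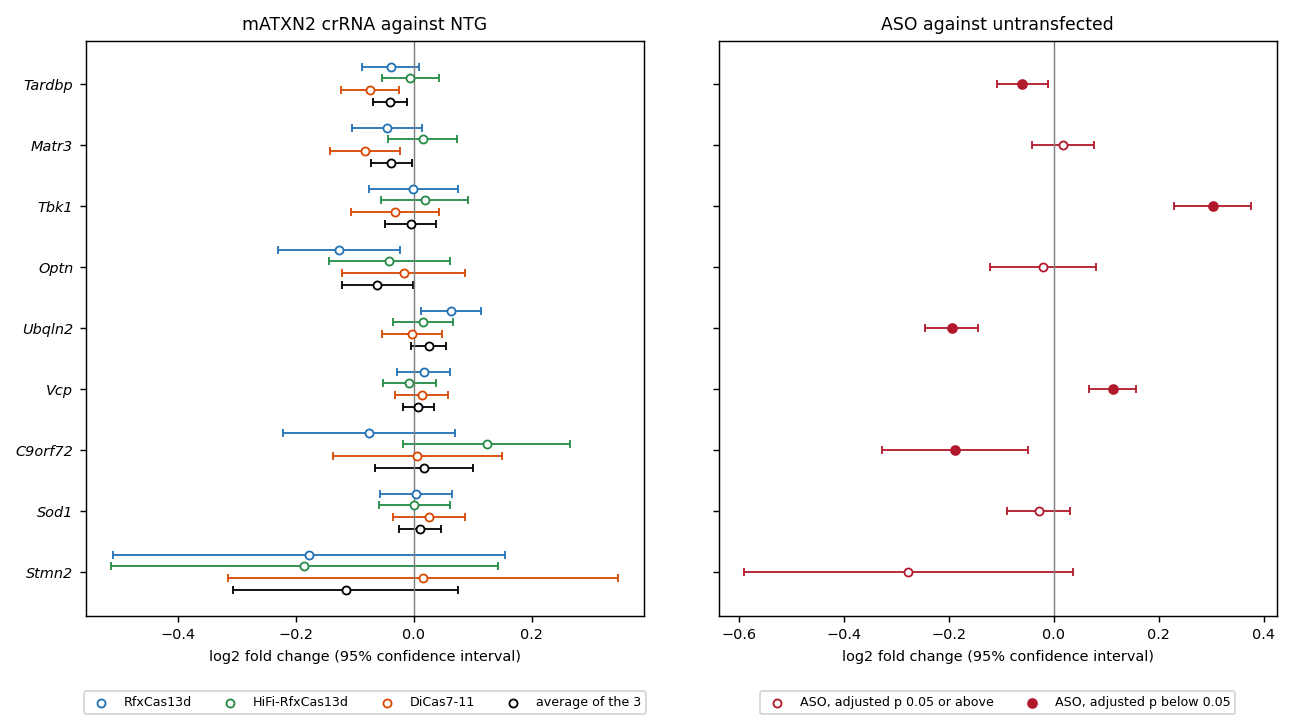
Log2 fold changes of the 9 genes with 95% confidence intervals (horizontal axis) for the mATXN2 crRNA against NTG with each effector and on average (left) and for the ASO against untransfected cells (right, on its own scale). Filled points passed an adjusted p of 0.05: none on the left, and on the right Tbk1 and Vcp as rises and Tardbp, Ubqln2 and C9orf72 as falls.

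The ASO was compared with untransfected cells, a comparison in which 42.7% of all genes passed. Of the 9 ALS genes 5 did, and 5 did not overlap between groups, against 51.8% of all genes, so their share was near that of all genes. Tbk1 and Vcp rose, while Ubqln2, C9orf72 and Tardbp fell (over all genes 21.0% rose and 21.7% fell). With no control oligonucleotide, the lowering of Atxn2 and the delivery of an oligonucleotide cannot be told apart here. The summed neuronal markers stood at 662.2 CPM with the ASO and 789.1 without, the neuroblast markers at 666.1 and 623.6, and the fibroblast markers at 5.69 and 8.32, and their part in the changes below was not tested.

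Tbk1 showed the largest change. Its ASO libraries held 116.3, 115.6 and 120.5 CPM, above every other library of the series, and its untransfected libraries 97.4, 92.1 and 96.4. The log2 fold change was 0.30 ± 0.04 (adjusted p = 6.49e-08), a rise of 23.3% (interval 17.3 to 29.8%). Of its 7 pairs of neighbouring groups, untransfected cells against HiFi-RfxCas13d NTG and DiCas7-11 NTG against the ASO did not overlap, and the 6 transfected groups between them did.

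Ubqln2 fell. The ASO libraries held 294.9, 307.9 and 311.4 CPM, below the lowest value elsewhere, and the untransfected libraries 345.7, 352.0 and 348.6. The log2 fold change was -0.20 ± 0.02 (adjusted p = 2.21e-07). Related ubiquilin genes are in the table, and how reads of similar sequence were shared between them was not tested.

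Vcp rose by less, from 614.6, 607.1 and 631.4 CPM in untransfected cells to 674.5, 659.6 and 667.8 in ASO-treated cells. The groups did not overlap, and the log2 fold change was 0.11 ± 0.02 (adjusted p = 0.000137). Tbk1, Ubqln2 and Vcp passed under all 16 alternatives.

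C9orf72 and Tardbp fell by amounts nearer to the replicate spread. C9orf72 held 33.2, 29.0 and 29.7 CPM in ASO-treated and 34.0, 36.7 and 33.7 CPM in untransfected cells, so the highest ASO library was just below the lowest untransfected library. Its log2 fold change was -0.19 ± 0.07 (adjusted p = 0.0261), and it did not pass without the second untransfected (0.151), the second ASO (0.120) or the third ASO library (0.0908). Nor did C9orf72 pass when scaled by library size alone (0.0894) or with limma-trend adjusted over the 7 pairwise comparisons together (0.0715). Tardbp, with the values above, had a log2 fold change of -0.06 ± 0.02 (adjusted p = 0.0421), which did not pass when any of the 6 libraries was left out (adjusted p from 0.0609 to 0.190) and was -0.02 (0.592) when scaled by library size alone. It passed in 3 of the 16 alternatives.

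The other 4 genes did not pass with the ASO. Matr3 differed by 0.02 (adjusted p = 0.658), Optn by -0.02 (0.759) and Sod1 by -0.03 (0.460) on the log2 scale. When scaled by library size alone, the values of Optn and Sod1 were 0.02 and 0.01. Stmn2 held 6.997, 4.19 and 6.87 CPM against 5.97, 8.27 and 7.65, with overlap, and its log2 fold change was -0.28 ± 0.15 (adjusted p = 0.148).

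The NTG arms were compared with the same 3 untransfected libraries, so these comparisons share their controls with each other and with that of the ASO. No member passed with RfxCas13d (11.3% of all genes), 1 did with HiFi-RfxCas13d (20.9%) and 2 with DiCas7-11 (21.9%). In the RfxCas13d arm 1 member had an unadjusted p under 0.05 in edgeR (24.8% of all genes), and DESeq2 (8.95%) and limma-trend (12%) called 0. Tbk1 rose by 0.15 ± 0.04 on the log2 scale in the DiCas7-11 NTG arm (105.0, 108.9 and 103.5 CPM; adjusted p = 0.00351), and all 3 libraries lay above the untransfected ones. In the RfxCas13d and HiFi-RfxCas13d NTG arms it gave 0.11 (adjusted p = 0.0672) and 0.08 (0.127), also without overlap. The first passed without the second RfxCas13d NTG library (0.0392). For the NTG arms, here and below, the share of all genes without overlap was not computed.

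Vcp rose in the HiFi-RfxCas13d NTG arm (661.1, 650.8 and 646.5 CPM; log2 fold change 0.08 ± 0.02, adjusted p = 0.0100) and the DiCas7-11 NTG arm (639.7, 661.5 and 640.6 CPM; 0.07 ± 0.02, 0.0270). The libraries of both arms lay above those of untransfected cells. The first did not pass without the second untransfected library (0.0619), and the second did not pass without the second DiCas7-11 NTG library (0.123) or without the first (0.0702) or second untransfected library (0.127). Ubqln2 gave -0.05, -0.06 and -0.06 in the 3 NTG arms (adjusted p = 0.219, 0.0867 and 0.104), and Tardbp gave 0.05, 0.06 and 0.03 (0.217, 0.0719 and 0.408). In the HiFi-RfxCas13d NTG arm Tardbp passed with a replicate block (0.0377) and with the coding length correction (0.0413).

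A wider list of 47 genes, made of other ALS genes and known RNA targets of TDP-43, served as context, and 40 of them were tested. With the mATXN2 crRNA, 1 of 40 passed with RfxCas13d, 0 with HiFi-RfxCas13d, 2 with DiCas7-11 and 6 for the average, or 2.5%, 0%, 5% and 15%, where 1.39%, 0.295%, 0.942% and 5.19% of all genes did. These shares rest on few genes and were not tested against each other. Taf15, which encodes an RNA-binding protein, fell with RfxCas13d from 198.4, 195.9 and 194.6 to 181.6, 178.9 and 183.0 CPM without overlap (log2 fold change -0.12 ± 0.03, adjusted p = 0.0273). That call held without the third NTG library and was lost without any of the other 5 libraries (adjusted p from 0.0575 to 0.119) or with a correction for coding length (0.0657). With DiCas7-11, Nek1, a kinase of cilia and DNA repair, fell by 0.18 ± 0.04 (adjusted p = 0.0297) and Hnrnpa1, a splicing regulator, by 0.13 ± 0.02 (adjusted p = 0.00658). The Hnrnpa1 libraries held 2369, 2392 and 2373 CPM against 2479, 2723 and 2592. Without the second NTG library neither passed (adjusted p = 0.271 for Nek1 and 0.107 for Hnrnpa1), nor did Nek1 without the third NTG (0.0946), the second mATXN2 (0.135) or the third mATXN2 library (0.0888), Hnrnpa1 without the first mATXN2 library (0.0523), or either in a fit of the compared samples alone (0.288).

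For the average over effectors Nek1 (-0.10), Tmem106b (-0.08), which encodes a lysosomal membrane protein, and Taf15 (-0.07) fell most, and Unc13a, a synaptic vesicle priming factor and a human TDP-43 target, rose by 0.11 (adjusted p = 0.00915, 0.0417, 0.00657 and 0.0210). Nek1 and Taf15 passed in all 27 alternatives. Tmem106b did not pass when any of 11 libraries was left out (adjusted p from 0.0578 to 0.103). Unc13a did not pass with the coding length correction (0.114) or without the first RfxCas13d NTG, RfxCas13d mATXN2, HiFi-RfxCas13d mATXN2 or DiCas7-11 mATXN2 library or the second DiCas7-11 NTG library (0.0504 to 0.0629).

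With the ASO, 18 of the 40 passed, 45% beside 42.7% of all genes, with 12 higher and 6 lower. By role, 4 of 9 RNA-binding genes passed (2 higher, 2 lower), 6 of 13 genes of protein quality control and membrane traffic (5 higher, 1 lower), 6 of 8 cytoskeletal and transport genes (4 higher, 2 lower), 1 of 4 others and 2 of 7 TDP-43 RNA targets. Unc13a is counted in both of the last classes. Among the largest rises were those of Kif5a, a neuronal kinesin motor (0.54 ± 0.05, from 70.1 ± 3.97 to 102.5 ± 4.02 CPM), and Sqstm1, the autophagy receptor p62 (0.38 ± 0.03). For Sqstm1 the ASO libraries held 462.6, 460.3 and 463.5 CPM, far above 362.4, 353.5 and 351.4. The largest falls were those of Unc13a (-0.24 ± 0.05), Tia1, a stress granule RNA-binding protein (-0.24 ± 0.05), and Nek1 (-0.23 ± 0.04). Their adjusted p-values ran from 1.09e-11 (Sqstm1) to 0.000250 (Tia1), and these 5 passed under all 16 alternatives.

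**Figure D3:**
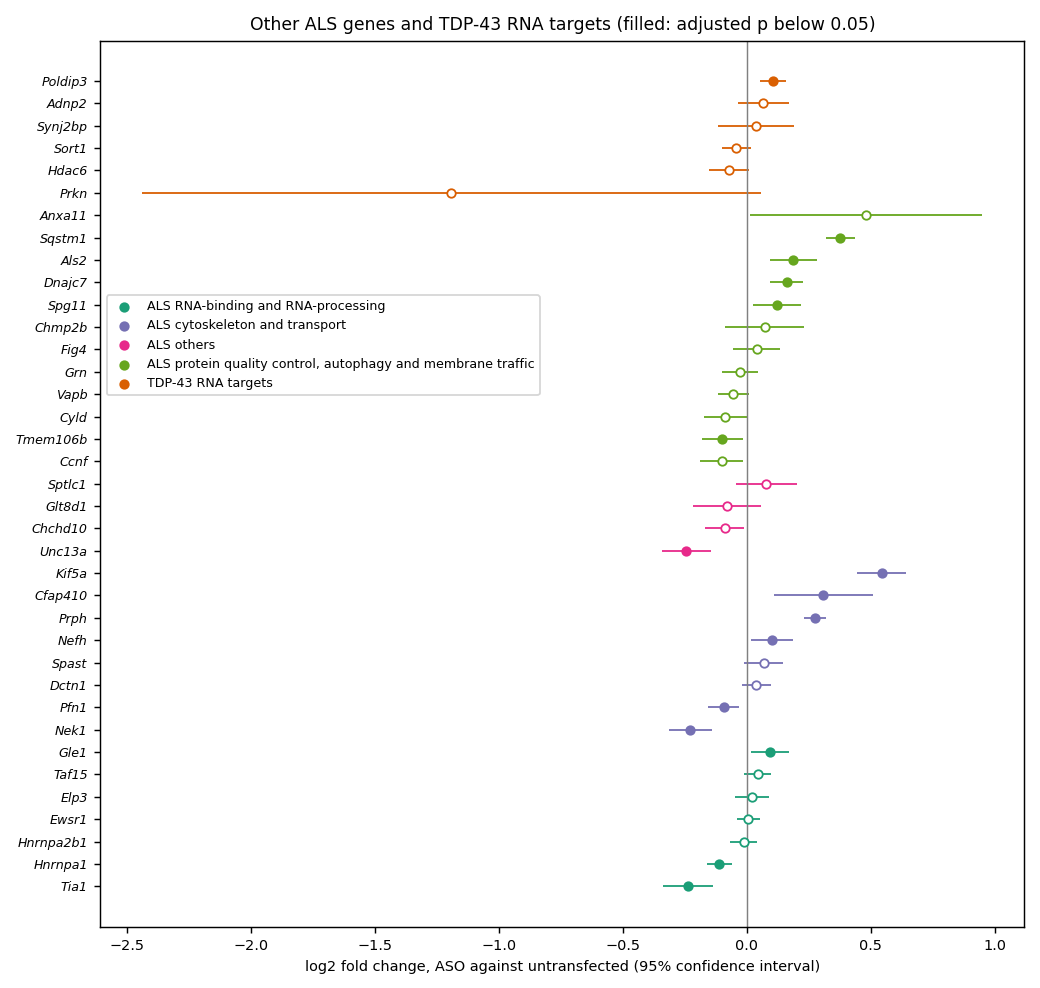
Log2 fold changes with 95% confidence intervals (horizontal axis) of 37 of the 40 tested genes of the wider list, ASO against untransfected cells, coloured by class and filled where the adjusted p was below 0.05. Unc13a, in 2 classes, is drawn once; Kif5a and Sqstm1 lie farthest right among the filled points and Unc13a, Tia1 and Nek1 farthest left.

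In the NTG arms 6, 11 and 9 of the 40 passed against untransfected cells with RfxCas13d, HiFi-RfxCas13d and DiCas7-11. These were 15%, 27.5% and 22.5% of the list, near the 11.3%, 20.9% and 21.9% of all genes. Chchd10, a mitochondrial protein, fell in each arm (by 0.25, 0.25 and 0.42 on the log2 scale) and Hnrnpa2b1, an hnRNP that packages RNA, rose in each (by 0.13, 0.16 and 0.18). Sqstm1 (0.18) and Taf15 (0.14) were the other named rises with RfxCas13d. With HiFi-RfxCas13d and DiCas7-11, Dnajc7, a heat shock co-chaperone, rose by 0.14 and 0.16. In the same arms Grn, which encodes progranulin, fell by 0.21 and 0.21 and Unc13a by 0.18 and 0.19. The adjusted p-values of these named changes ran from 3.08e-08 (Chchd10, DiCas7-11) to 0.00788 (Unc13a, HiFi-RfxCas13d). The Unc13a calls were lost without the first untransfected library (adjusted p = 0.0562) and without the second DiCas7-11 NTG library (0.0950), respectively.

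The genes whose 8 group means followed Tardbp most closely, by Pearson correlation of log2 CPM among 8979 genes with a mean of at least 200 counts, were Aacs (r = 0.983), Rap1b (0.982), Zmpste24 (0.979), Ect2 (0.967) and Sub1 (0.965). With 8 group means that share libraries, 64 genes exceeded 0.9, and the values are a description. Among the members, Matr3 (r = 0.506) and Ubqln2 (0.495) were most like Tardbp, with 1811 and 1875 genes closer to it, and Tbk1 was the most unlike (-0.532). Stmn2 was below the count minimum and was not compared.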

How the data were processed

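The authors deposited expected counts for each gene, made with Salmon 1.5.2 (per the labels) against the NCBI mouse transcriptome of GRCm39 and summed with tximport (lengthScaledTPM), which scales by length but leaves library size in the values. A column marks the 12874 genes the authors kept, and no column of the authors' own comparisons was used. Each library's column was matched to its sample by effector, arm and replicate number.

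Expected counts were rounded for edgeR 4.0.16 (R 4.3.3). A filter of 0.5 CPM or more in 3 or more samples left 13901 of 39253 genes, which were scaled by TMM and fitted with the quasi-likelihood test in 1 model of the 24 samples in which every group had its own term. P-values were two-sided and adjusted by Benjamini-Hochberg within each comparison, with a threshold of 0.05. Standard errors are the log2 fold change divided by the root of F, and intervals are at 95% confidence. With 3 against 3 samples an exact permutation test cannot go below 0.1, so none is given. The scripts were tested on simulated data. Alternatives were other scaling, filters and tests (DESeq2 1.42.0, limma 3.58.1), fewer samples, a replicate block, a coding length correction (lowess span 0.3; 87.2% of tested genes had a length), and leaving out each library.

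The text names the 9 members in each comparison, Atxn2, at most 3 rises and 3 falls among the called genes of the wider list per comparison, and the 5 genes most like Tardbp; some genes that this rule names are not reported here, though the counts include them. Marker genes of the line were also listed. The members and lists were chosen with earlier results of these data known, so their counts are descriptions. Transcript lengths and sequences came from GENCODE M21 (GRCm38), another build than the authors', using the transcript with the longest coding sequence, matched by Entrez identifier.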

Additional observations from a re-analysis of the deposited data

How the results depend on the processing

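C9orf72 and Stmn2, the members with the fewest counts, had the widest intervals, and the part of depth was not tested. For deeper genes, log2 fold changes of -0.07 (Tardbp) and -0.08 (Matr3) with the DiCas7-11 crRNA did not pass edgeR's test (adjusted p = 0.131 and 0.166). Tbk1, Ubqln2 and Vcp with the ASO and Tbk1 in the DiCas7-11 NTG arm kept direction and threshold in all 16 alternatives. The members' values were compared over all alternatives of the crRNA, average, ASO and NTG comparisons and of the F-test, which has no direction. Of these, 1459 kept their side of the threshold and any direction, 24 called values no longer passed and 11 came to pass. A further 45 uncalled values changed sign, and 0 called values did. The differences between effectors are not in these counts.

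The number of the 9 members called changed as follows, and the cause was not tested. Beside each count stands the number of all 13901 tested genes called, which is not given where a library was left out. With the ASO (5, beside 5938) it was 3 with library size only (6172) and 3 with limma-trend adjusted over the 7 comparisons (4927), and 3 to 4 with a library left out. It was 4 with DESeq2's test (5333), where Tardbp was lost. Tardbp was also lost with DESeq2 size factors (5950), no filter (5832 of 24690), the stricter filter (5743 of 11716) and the coding length correction (5892). With DiCas7-11 mATXN2 (0, beside 131) it was 1 with that limma-trend adjustment (586), 1 with DESeq2's test (286) and 0 to 1 with a library left out. For the average (0, beside 722) it was 1 with DESeq2's test (747) and 0 to 2 with a library left out. For the RfxCas13d NTG arm (0, beside 1565) it was 0 to 1 with a library left out. For the HiFi-RfxCas13d NTG arm (1, beside 2912) it was 2 with the coding length correction (2976) and 0 to 1 with a library left out. For the DiCas7-11 NTG arm (2, beside 3044) it was 1 with no filter (2990 of 24690), 1 with only the samples compared (1800) and 1 to 2 with a library left out. Without filtering, 83, 72 and 80 of 24690 genes were called for the 3 differences between effectors, and with only the samples compared 1, 0 and 1.

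By correlation the replicate numbers showed no pairing of the samples: in 21 pairs over 7 comparisons the correlations of deviations lay between -0.07 and 0.04. With the replicate block the average called 1 member (Tardbp, adjusted p = 0.0457), beside 906 genes in place of 722. The HiFi-RfxCas13d NTG arm called 2, Tardbp (0.0377) among them, beside 3148 genes in place of 2912. Each crRNA, ASO and NTG comparison called more genes with the block, such as 292 in place of 193 with the RfxCas13d crRNA and 251 in place of 131 with DiCas7-11. The difference between DiCas7-11 and RfxCas13d called 4 genes in place of 0, and the other comparisons' member counts stayed within 1.5 times.

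The sign changes were all of uncalled log2 fold changes. With library size only, Sod1 was -0.00034 (RfxCas13d crRNA), -0.0062 (HiFi-RfxCas13d crRNA) and 0.015 (ASO), Optn 0.022 (ASO) and Ubqln2 0.0063 (DiCas7-11 crRNA). With the coding length correction, Tbk1 was 0.017 and Sod1 -0.031 (RfxCas13d crRNA), Tardbp 0.0011, Vcp 0.00022 and Sod1 -0.011 (HiFi-RfxCas13d crRNA), Ubqln2 0.00090 (DiCas7-11 crRNA), Tbk1 0.0061 and Sod1 -0.0060 (average) and Sod1 0.040 (ASO). With a library left out, the RfxCas13d crRNA gave -0.031 to 0.025 (Tbk1), -0.0053 to 0.026 (Vcp) and -0.020 to 0.022 (Sod1). The HiFi-RfxCas13d crRNA gave -0.026 to 0.0061 (Tardbp), -0.017 to 0.037 (Matr3), -0.011 to 0.047 (Tbk1), -0.015 to 0.0029 (Vcp) and -0.015 to 0.015 (Sod1). The DiCas7-11 crRNA gave -0.058 to 0.041 (Optn), -0.027 to 0.025 (Ubqln2), -0.052 to 0.087 (C9orf72), -0.0027 to 0.049 (Sod1) and -0.11 to 0.11 (Stmn2). The average gave -0.016 to 0.0042 (Tbk1) and -0.0032 to 0.044 (C9orf72), the ASO -0.045 to 0.0046 (Optn), and the DiCas7-11 NTG arm -0.070 to 0.0019 (Matr3).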
